A study of Mus musculus with 22 samples.

Results

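The knock-down of HP1gamma in mouse embryonic stem (ES) cells was compared with the knock-downs of its 2 relatives, HP1alpha and HP1beta. The comparison rested on skipped-exon events, each of which weighs the inclusion of 1 cassette exon against its skipping. An event entered when it was listed in all 3 single knock-down libraries with at least 20 reads fitting inclusion alone or skipping alone in the HP1gamma library and in the sum of the HP1alpha and HP1beta libraries. Of 10873 events in the series, 7053 were listed in the 3 libraries and 5333 met this minimum, covering 5114 distinct exons in 3036 genes. Another 1718 fell short of the minimum in the HP1gamma library and 2 in the sum alone, while 640 events listed for HP1alpha and HP1beta had no entry for HP1gamma. Of the 5333 events, 103 lay in no gene and 56 in several.

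HP1 proteins carry a chromodomain that binds histone H3 methylated at lysine 9 and a chromoshadow domain through which they pair with each other and with partner proteins. HP1alpha (gene Cbx5) and HP1beta (Cbx1) are best known from pericentromeric heterochromatin, whereas HP1gamma (Cbx3) is also found along transcribed genes, where it has been linked to elongating RNA polymerase and to the choice of exons. Since all 3 read the same histone mark, the comparison asked which differences in splicing and in transcript reads belong to the loss of HP1gamma and not to HP1 loss or transfection in general.

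All 3 groups were R1 mouse ES cells of the wild type (WT), kept undifferentiated with leukaemia inhibitory factor on a gelatin coat, with no feeder layer. Each received 1 siRNA reagent, against HP1alpha, HP1beta or HP1gamma, at 90 nM with Lipofectamine 2000, and RNA was taken 48 h later and sequenced as paired reads of 101 bases. Set beside them, and not used to choose events, were WT cells given the 3 siRNAs together at 60 nM each (the triple knock-down) and TKO cells given them at 80, 80 and 120 nM (HP1alpha, HP1beta, HP1gamma; here the TKO triple). TKO cells lack Dnmt1, Dnmt3a and Dnmt3b. Untransfected WT and TKO cells were sequenced as single reads of 50 bases, and the labels name no control siRNA group. Each group had 2 biological replicates per the labels, which the authors pooled into 1 library, so no value has a replicate error. Tests and intervals below compare reads of libraries and cover counting error only. In bulk RNA, fewer cells with a transcript and less transcript per cell cannot be told apart.

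Event reads numbered 9750348 for HP1alpha, 8907552 for HP1beta and 7383028 for HP1gamma, so the HP1gamma library was the shallowest of the 3. It had 57 reads per listed event that distinguish inclusion from skipping (median), against 66 and 62, and 3.08 inclusion reads per skipping read, against 3.18 and 3.14. Of 14 ES cell markers 6 were measured (Klf4, Sall4, Tbx3, Tcl1, Tdh and Zfp42), with a summed level of 3140 RPM (event reads scaled to 1000000 per library) for HP1gamma, 3060 for HP1alpha and 3080 for HP1beta. Of 19 markers of other cell types 1 was measured, fibronectin (Fn1), at 352, 433 and 344 RPM. The other 8 and 18 markers had no gene-assigned event listed in all 3 libraries.

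The targeted gene was examined first, through the reads of its exon event. Cbx3 (chromosome 6, 51478438 to 51478600, mm10) had 32.2 RPM in the HP1gamma library, 49.6 for HP1alpha and 52.2 for HP1beta. The HP1gamma library was the lowest of the 3, at a ratio of 0.634 (exact 95% interval 0.548 to 0.731) to the other 2 combined, on 238 reads. Of those reads 87.8% fitted neither isoform of the event. Without such reads, a count chosen after seeing the data, 29 reads remained for HP1gamma against 94 in each of the others and the ratio was 0.378. The triple knock-downs, which also received HP1gamma siRNA, had 36.1 RPM in WT and 35.1 in TKO cells. Cbx1 had 1620 RPM for HP1gamma, 1520 for HP1alpha and 507 where it was itself targeted. Cbx5 had 105 RPM for HP1gamma, 110 for HP1beta and 43.0 where it was targeted. Event reads of each HP1 gene were thus lowest among the 3 single knock-downs where that gene was targeted, and the drop was smallest for Cbx3. Untransfected WT cells had 457 RPM for Cbx3, 615 for Cbx1 and 113 for Cbx5. Cbx3 was thus 8.99 times higher in WT cells than in the HP1alpha and HP1beta libraries together. Cbx1 was lower in WT cells than in the HP1alpha and HP1gamma libraries. The size of these gaps depended on the reads counted. Scaled to reads that fit an isoform only, Cbx1 had 227 RPM in WT cells, 254 for HP1alpha and 282 for HP1gamma. Cbx3 by that count had 838 RPM in WT cells, 22.4 for HP1alpha and 23.8 for HP1beta. Transfection, read length and platform all differ there and cannot be told apart, and the reference used for the Cbx3 ratio already stood far below WT cells. Protein levels were not measured in these files.

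**Figure D1:**
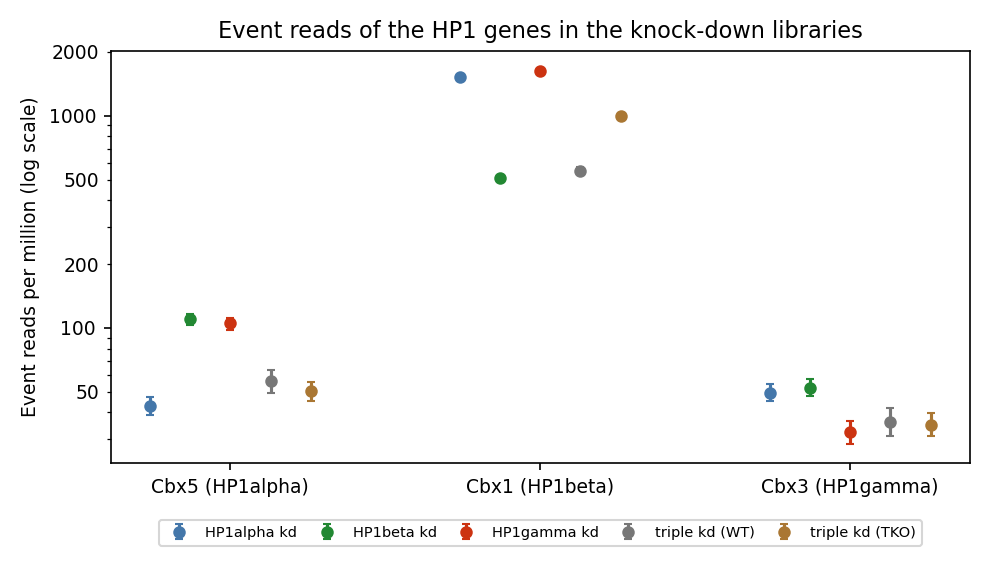
Event reads (RPM, log scale) of the 3 HP1 genes in the 5 knock-down (kd) libraries, with exact 95% Poisson intervals that cover counting error only. Within each gene the targeted single knock-down is the lowest of the 3 single knock-downs; Cbx3 stands at 32.2 in the HP1gamma library against 49.6 and 52.2. Levels are not scaled by length and are compared within a gene only.

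Exon inclusion after HP1gamma knock-down was close to that after HP1alpha or HP1beta knock-down. The inclusion level, from 0 to 1, is the authors' MISO estimate of how many of a gene's transcripts carry the exon. A difference counted as called when the adjusted p did not exceed 0.05 (two-sided Fisher's exact test on inclusion-alone and skipping-alone reads, Benjamini-Hochberg adjustment over all 5333 events) with the HP1gamma level at least 0.1 from the mean of the other 2. By this rule 0 of 5333 events were called (0%). Without the minimum of 0.1, 4 events passed the same exact test (0.075%), and 159 had an unadjusted p under 0.05, or 2.98%. The median absolute difference in level was 0.015, and 3150 events (59.1%) differed by 0.02 or less. Differences of 0.1 or more were found in 400 events (7.5%), 151 higher for HP1gamma and the rest lower, and differences of 0.2 or more in 52.

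Each of the other 2 knock-downs departed from the remaining pair about as rarely. Over 5250 events with the read minimum in each library, 158 had an unadjusted exact p under 0.05 for HP1gamma against the other 2, 155 for HP1alpha and 160 for HP1beta. Calls numbered 0 for HP1gamma, 0 for HP1alpha and 1 (0.019%) for HP1beta, the last being a 15-nucleotide exon of Immt. In pairs, 0 events were called between HP1gamma and HP1alpha, 1 between HP1gamma and HP1beta (0.019%) and 1 between HP1alpha and HP1beta (0.019%), again Immt in both. A departure of at least 0.1 without a test was found in 378 events for HP1gamma (7.2%), 316 for HP1alpha (6.02%) and 309 for HP1beta (5.89%). For HP1gamma 136 of these were higher and 242 lower, against 176 and 140 for HP1alpha and 158 and 151 for HP1beta. The difference between these splits was not tested.

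The surplus of lower levels for HP1gamma lay among exons that were mostly included. Where the other 2 libraries averaged over 0.8, 112 of 2795 exons stood at least 0.1 lower for HP1gamma and 9 higher. The same count gave 44 lower and 14 higher of 2751 for HP1alpha, and 56 and 21 of 2741 for HP1beta. Read depth moved with these counts: the median distinguishing reads of such exons were 117 for HP1gamma, 167 for HP1alpha and 150 for HP1beta, and its part in the result was not tested. Among exons at 0.2 to 0.8 the counts for HP1gamma were nearly even, 122 higher and 129 lower of 1067. Those of the others leaned higher, with 149 higher and 94 lower of 1097 for HP1alpha, and 129 and 94 of 1111 for HP1beta.

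**Figure D2:**
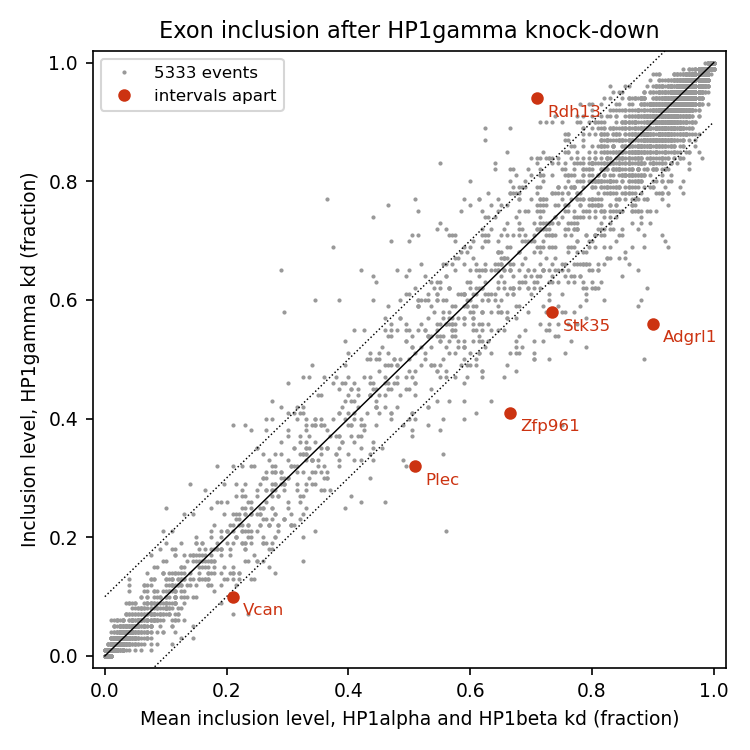
Inclusion level (fraction of transcripts) of 5333 exon events in the HP1gamma knock-down against the mean of the HP1alpha and HP1beta knock-downs. The solid line marks equal levels and the dotted lines a difference of 0.1; red points are the 6 events whose deposited HP1gamma interval overlaps neither of the other 2, with Rdh13 above the line and Adgrl1, Zfp961, Stk35, Plec and Vcan below it.

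Exons at which the HP1gamma library stood apart were sought by the authors' own intervals. In 6 events (0.113%) the HP1gamma interval overlapped neither of the others and the level differed by at least 0.1, with 1 higher and 5 lower. The same rule over the 5250 events gave 6 for HP1gamma (0.114%), 10 for HP1alpha (0.19%) and 4 for HP1beta (0.0762%), so such exons were not more frequent for HP1gamma than for HP1alpha. None of the 6 passed the exact test after adjustment.

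The largest of these differences lay in an 18-nucleotide exon of Adgrl1, which encodes latrophilin 1, an adhesion receptor coupled to G proteins (chromosome 8, 83937916 to 83937933, plus strand, 6 codons; it also lies within Gm10644, so reads of the 2 genes may mix). Its level was 0.56 (deposited interval 0.39 to 0.72) for HP1gamma, 0.89 (0.82 to 0.95) for HP1alpha and 0.91 (0.85 to 0.96) for HP1beta. HP1gamma had 23 inclusion and 9 skipping reads, HP1alpha 106 and 9, and HP1beta 104 and 7. The skipping reads were thus alike in number and the inclusion reads fewer. The share of inclusion reads for HP1gamma minus that in the sum was -21.0 percentage points (95% interval -38.5 to -7.83; exact test p = 0.00115, adjusted p = 0.598). The triple knock-down stood at 0.96, with 73 inclusion reads and 1 skipping read, although it too received HP1gamma siRNA. The TKO triple stood at 0.75. Untransfected WT cells, which differ in read length and platform, stood at 0.02, on 0 inclusion and 31 skipping reads.

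A still shorter exon, of 12 nucleotides in Commd6, a member of the COMM domain family of trafficking and NF-kappaB regulators, showed a wider gap but missed the read minimum with 18 distinguishing reads for HP1gamma (chromosome 14, 101640288 to 101640299, minus strand, 4 codons). The level was 0.18 (0.05 to 0.35) for HP1gamma, 0.92 (0.89 to 0.95) for HP1alpha and 0.95 (0.91 to 0.97) for HP1beta. There were 3 inclusion and 15 skipping reads for HP1gamma against 271 and 18 for HP1alpha and 233 and 10 for HP1beta. With a minimum of 10 reads it was the single called event of 5999 tested (adjusted p = 3.97e-12, exact test). The triple knock-down did not share the low level: it stood at 0.91, on 136 inclusion and 10 skipping reads. The TKO triple stood at 0.40 on 5 and 7 reads. Untransfected WT cells, with another read length and platform, stood at 0.03 on 0 and 23.

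A 9-nucleotide exon of Macf1, a giant protein that links microtubules to actin, went the other way, again under the read minimum (chromosome 4, 123386549 to 123386557). It stood at 0.84 (0.68 to 0.94) for HP1gamma on 27 inclusion and 3 skipping reads. HP1alpha had 0 and 4 reads and HP1beta 0 and 5, both at a level of 0.07. With 0 of 9 reads for inclusion in the sum, an inclusion share of up to 33.3% is allowed there. The triple knock-down, at 0.11 on 0 and 4 reads, was again with HP1alpha and HP1beta.

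The short exon of Immt, whose product Mic60 organises the cristae junctions of mitochondria, separated HP1beta and not HP1gamma (chromosome 6, 71866726 to 71866740, 5 codons). Levels were 0.83 (0.79 to 0.87) for HP1gamma and 0.82 (0.78 to 0.86) for HP1alpha, with overlapping intervals, but 0.28 (0.20 to 0.35) for HP1beta. Inclusion and skipping reads were 295 and 44, 387 and 62, and 45 and 63. Against HP1beta alone the HP1gamma difference of 0.55 was called (adjusted p = 4.65e-16, Fisher's exact test), and against the sum the adjusted p was 0.315. The triple knock-down, at 0.33, stood with HP1beta. The TKO triple stood at 0.01, on 0 inclusion and 80 skipping reads. Untransfected WT cells, which differ in read length and platform, stood at 0.0, on 0 and 69.

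The other 5 exons with separate intervals were longer. The 105-nucleotide exon of Rdh13, a mitochondrial retinol dehydrogenase, stood at 0.94 (0.84 to 1.0) for HP1gamma, 0.73 (0.63 to 0.83) for HP1alpha and 0.69 (0.59 to 0.79) for HP1beta. Skipping reads were 0 of 60 for HP1gamma, which allows a skipping share of up to 5.0%, against 10 of 124 and 8 of 98. The exact test gave p = 0.0165 and adjusted p = 1, and the triple knock-down stood at 0.73. Untransfected WT cells, which differ in read length and platform, stood at 0.95, on 209 inclusion and 2 skipping reads.

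Zfp961, a KRAB zinc finger gene, had a 61-nucleotide exon at 0.41 for HP1gamma, 0.67 for HP1alpha and 0.66 for HP1beta, and at 0.58 in both triple knock-downs. The 750-nucleotide exon of Stk35, a serine/threonine kinase, stood at 0.58 (0.51 to 0.65) for HP1gamma, 0.74 (0.69 to 0.79) for HP1alpha and 0.73 (0.67 to 0.79) for HP1beta. Both triple knock-downs lay with the latter, at 0.75 and 0.78. For these 2 exons the deposited levels lay further apart than the distinguishing reads: inclusion reads made up 84.8% of them for HP1gamma and 91.8% in the sum at Zfp961, and 91.2% and 92.6% at Stk35.

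Very long exons of plectin and versican completed the set. The 3381-nucleotide exon of Plec, the cytolinker of intermediate filaments, stood at 0.32 (0.29 to 0.34) for HP1gamma, 0.42 (0.39 to 0.44) for HP1beta and 0.60 (0.57 to 0.63) for HP1alpha, so that HP1alpha and HP1beta differed from each other by more than HP1gamma differed from HP1beta. Distinguishing reads were nearly all for inclusion, 925 and 4, 1423 and 1, and 2152 and 5. The 2880-nucleotide exon of Vcan, a proteoglycan of the extracellular matrix, stood at 0.10 (0.06 to 0.15) for HP1gamma and 0.21 in each of the others, on 19 inclusion and 4 skipping reads against 107 and 4 and 79 and 4. How the levels arose from the reads at such long exons could not be examined.

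**Figure D3:**
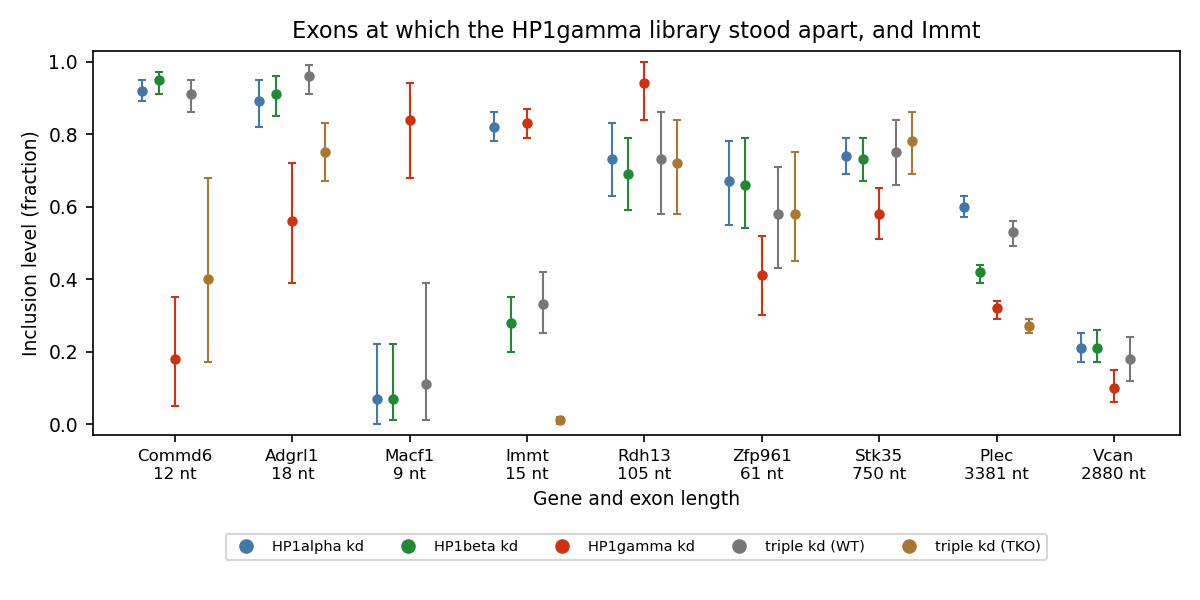
Inclusion level (fraction) of 9 exons in the 5 knock-down (kd) libraries, with the deposited intervals as bars; the x axis gives gene and exon length. At Commd6 and Adgrl1 the HP1gamma library lies at 0.18 and 0.56 while the single knock-downs of HP1alpha and HP1beta and the triple knock-down of WT cells lie at 0.89 to 0.96; Immt separates HP1beta instead. Commd6 and Macf1 lie under the read minimum, and missing points are events not listed in that library.

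In each of the 9 exons of that plot, most of them chosen because HP1gamma stood apart, the triple knock-down of WT cells lay nearer to HP1alpha or to HP1beta than to HP1gamma. Over all 4594 events read in the 4 libraries, differences that share no library were set against each other. The difference of HP1gamma from HP1alpha and that of the triple knock-down from HP1beta had Pearson's r of -0.0231 and Spearman's rho of 0.0658 across events. For HP1gamma minus HP1beta and triple minus HP1alpha the values were -0.0192 and 0.0511. For HP1alpha minus HP1beta against triple minus HP1gamma, they were 0.00393 and -0.0103. Events are not independent replicates and share the depth of their library. In the former pairs both differences set a library with HP1gamma siRNA against one without it, and no coefficient exceeded 0.0658 in size. The triple knock-down also received HP1alpha and HP1beta siRNA, however. HP1alpha siRNA therefore entered both differences of the first pair with opposite signs, as did HP1beta siRNA in the next pair. These coefficients thus cannot tell whether an HP1gamma effect was shared.

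Another 4 events passed the exact test on reads without a difference of 0.1 in level. The strongest lay in a 45-nucleotide exon of Actg1, which encodes the gamma actin of the cytoplasm (chromosome 11, 120347492 to 120347536). HP1gamma had 11 inclusion and 430 skipping reads, HP1alpha 15 and 0, and HP1beta 16 and 0, at an adjusted p of 6.59e-36 in that test. Inclusion made up 2.49% of these reads for HP1gamma, while 0 of 31 skipping reads in the sum allow a skipping share of up to 9.68% there. Both triple knock-downs had 10 inclusion reads and no skipping read, whereas untransfected WT cells, which differ in read length and platform, had 0 and 1256. Yet the deposited level was 0.00 for HP1gamma and 0.01 for both others, and 22924 reads of the event fitted both isoforms in the HP1gamma library. Actin genes have near-identical copies and pseudogenes, and whether the assignment of these reads was affected was not tested.

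The other 3 concerned highly expressed transcripts with small differences in reads. Rps9, a protein of the small ribosomal subunit, had 15470 inclusion and 22 skipping reads for HP1gamma, 15189 and 49 for HP1alpha and 16662 and 80 for HP1beta, all at a level of 0.98 (adjusted p = 0.0014, Fisher's exact test). In Srsf7, an SR protein that activates exons, a 460-nucleotide exon had 666 inclusion and 569 skipping reads for HP1gamma, or 53.9% inclusion, and 61.3% in the sum, a difference of -7.39 percentage points (95% interval -10.7 to -4.13; adjusted p = 0.0113, exact test). The levels were 0.06 for HP1gamma, 0.07 for HP1alpha and 0.06 for HP1beta. The final such event spans 9955 nucleotides of Meg3, an imprinted long non-coding RNA, with 67.4% inclusion reads for HP1gamma and 73.7% in the sum (adjusted p = 0.0103, exact test) at levels of 0.02 to 0.03. In the triple knock-down the levels were 0.07 for Srsf7, 0.98 for Rps9 and 0.02 for Meg3.

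Exons known from the comparison of the knock-downs with untransfected cells were looked up as well, and none was called for HP1gamma. The Morf4l1 exon, in a gene for a chromodomain protein of histone acetyltransferase complexes, stood at 0.91 for HP1gamma, 0.93 for HP1alpha and 0.95 for HP1beta. Tra2a, a splicing activator, stood at 0.08, 0.10 and 0.10, with a difference in the share of inclusion reads of -5.08 points for HP1gamma (95% interval -9.91 to -0.158; p = 0.0481 and adjusted p = 1, exact test). Ctnnd1, the p120 catenin, stood at 0.08, 0.07 and 0.04. Fgfr2, a receptor for fibroblast growth factors, stood at 0.42 for HP1gamma and HP1beta and 0.23 for HP1alpha. Brd8, a bromodomain protein, stood at 0.91, 0.87 and 0.88.

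Gene groups were then described by count, beside 7.5% of all 5333 events with a difference of at least 0.1 and no call in any group. HP1 partners and the machinery of H3K9 methylation had 48 events, of which 3 stood at least 0.1 higher and 4 lower for HP1gamma (14.6%). Mis12, a kinetochore subunit that binds HP1, stood at 0.54 (0.40 to 0.67) for HP1gamma, 0.72 (0.61 to 0.82) for HP1alpha and 0.77 (0.65 to 0.87) for HP1beta, with overlapping intervals. Hp1bp3, a linker-histone relative that binds HP1, stood at 0.43, 0.27 and 0.28. An exon of Cbx5 itself, of 104 nucleotides, stood at 0.40, 0.27 and 0.28. All 3 had an adjusted p of 1 in the exact test. The HP1alpha value for Cbx5 rested on 14 inclusion and 7 skipping reads, in the library where Cbx5 was targeted. Another event of the same region, with an exon of 100 nucleotides, stood at 0.41 for HP1gamma, 0.38 for HP1alpha and 0.27 for HP1beta.

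SR proteins and their kinases had 57 events, 1 at least 0.1 higher and 4 lower (8.77%), and 8 with an unadjusted exact p under 0.05, including Srsf7. Clk2, a kinase that phosphorylates SR proteins, stood at 0.55 for HP1gamma and 0.69 in both others. Srrm2, a scaffold protein of the spliceosome, stood at 0.95 (0.85 to 1.0), 0.87 and 0.80. Inclusion made up 81.1% of the distinguishing reads for HP1gamma and 89.2% in the sum at Clk2, and 100% and 96.3% at Srrm2. The hnRNP proteins and other splicing regulators had 61 events, 1 higher and 4 lower (8.2%), and 0 with an unadjusted p under 0.05. Among them Hnrnpr stood at 0.61 for HP1gamma, 0.80 for HP1alpha and 0.78 for HP1beta, Mbnl2 at 0.64, 0.84 and 0.86, and the epithelial regulator Esrp1 at 0.47, 0.30 and 0.35. At Mbnl2 the distinguishing reads did not share the lower level: inclusion made up 94.3% of them for HP1gamma and 94.0% in the sum. The shares were 85.5% and 92.8% at Hnrnpr, and 84.0% and 70.5% at Esrp1. The triple knock-down was at 0.85 for Hnrnpr, 0.73 for Mbnl2 and 0.36 for Esrp1.

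Chromatin regulators had 114 events, 2 higher and 6 lower (7.02%). Kat7, the acetyltransferase HBO1, stood at 0.55 for HP1gamma, 0.69 for HP1alpha and 0.77 for HP1beta, and Pbrm1, a subunit of a SWI/SNF remodeller, at 0.77, 0.88 and 0.95. Inclusion made up 83.3% of the distinguishing reads for HP1gamma and 92.0% in the sum at Kat7, and 92.0% and 98.9% at Pbrm1. At both exons the deposited HP1gamma interval overlapped those of the others. Pluripotency genes had 14 events and differentiated markers 4, with no difference of 0.1. Tdh, the threonine dehydrogenase of mouse ES cells, stood at 0.85, 0.90 and 0.89. Cytoskeleton, adhesion and polarity genes had 119 events, 4 higher and 7 lower (9.24%), with Adgrl1 and Plec among them. Epb41l3, a membrane skeleton protein, stood at 0.62 (0.44 to 0.81), 0.86 and 0.92, on reads that were all for inclusion, and Tjap1, a tight junction protein, at 0.71, 0.51 and 0.52. Interferon and siRNA response genes had 13 events with 1 lower, Irf1, at 0.71, 0.86 and 0.77. Mitochondrial genes had 34 events with 1 higher (Immt). Apoptosis and cell cycle genes had 22, with 1 higher (Depdc1a, 0.47, 0.40 and 0.27) and 1 lower (Mdm4, 0.16, 0.27 and 0.25). Inclusion shares for HP1gamma and in the sum were 93.2% and 85.9% at Tjap1, and 97.3% and 98.7% at Irf1. They were 92.5% and 89.8% at Depdc1a, and 33.3% and 49.1% at Mdm4.

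Exon length and reading frame were not used by the rule. The 112 exons of up to 27 nucleotides included 0 calls and 1 with separate intervals (Adgrl1), and 7.14% differed by at least 0.1. Exons of 250 nucleotides or more differed by at least 0.1 in 13.5% of 458 events, but HP1alpha and HP1beta differed from each other by as much in 14.0% of them. Their median log2 odds ratio of inclusion was -0.191 for HP1gamma against the sum over 125 exons that had 5 or more reads of each class in both, against -0.058 over all 1609 such exons. Exons whose length is a multiple of 3 differed by at least 0.1 in 7.48% of 2434 events, and other exons in 7.52% of 2899.

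Exons near the read minimum are given as values. Just inside it, on 20 to 26 reads for HP1gamma, Ccdc163 stood at 0.69 against 0.28 for HP1alpha and 0.47 for HP1beta, Trappc6a at 0.76 against 0.48 and 0.45, and Trnau1ap at 0.58 against 0.27 and 0.32. Just outside it, beside Commd6, Mettl23 stood at 0.72 on 19 reads, against 0.26 and 0.37, and Aamdc at 0.30 on 11 reads, against 0.67 and 0.71. Their distinguishing reads lay closer than these levels. Inclusion made up 100% of them for HP1gamma and 95.8% in the sum at Mettl23, and 90.9% and 100% at Aamdc. At both exons the deposited HP1gamma interval overlapped those of the others.

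Levels of transcript reads were compared next, and here the genes called were mostly lower for HP1gamma, while the median log2 ratio over all genes was -0.00457. For each of 3651 genes, the event with most reads was expressed in RPM, and a gene was called past a fold of 1.5 with HP1gamma outside the range of the other 2. With 1 library a group there is no test. For HP1gamma 112 genes were called lower (3.07%) and 3 higher (0.0822%). A gene had to be listed in all 3 libraries, so larger drops could be missed: of the 640 events without an entry for HP1gamma, 51 had at least 400 reads in the sum, which puts each at a ratio of 0.625 or less if it was left out for having under 100 reads, and 27 events were listed for HP1gamma alone. The same rule called 79 genes higher (2.16%) and 3 lower (0.0822%) for HP1alpha, and 4 and 4 for HP1beta (0.11% each). Of the 112 genes, 108 had more reads for HP1alpha than for HP1beta. Against HP1alpha alone 240 genes were called lower (6.57%), among them 111 of the 112, and against HP1beta alone 46 (1.26%), among them 41 of the 112.

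The 8 lowest ratios were 0.442 to 0.490. Hcfc1, a cofactor that recruits histone modifiers to promoters, had 32.1 RPM for HP1gamma, 87.2 for HP1alpha and 56.7 for HP1beta, a ratio of 0.442 (95% interval 0.383 to 0.508) to the other 2 combined. Zfx, an X-linked zinc finger factor needed for ES cell self-renewal, had 14.1, 34.3 and 27.1 RPM (ratio 0.457). Tet2, which oxidises 5-methylcytosine, had 22.1, 52.2 and 41.2 RPM (ratio 0.470, 0.395 to 0.556), and Chd9, a chromodomain helicase, 35.6, 83.3 and 62.2 RPM (ratio 0.487). Of the HP1gamma reads, 66.2% fitted neither isoform at Hcfc1, 45.2% at Zfx, 93.9% at Tet2 and 12.9% at Chd9. In each of these genes HP1gamma was lowest and HP1alpha highest.

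Also among the lowest 8, the deubiquitinase Usp9x had 16.3 RPM for HP1gamma, 43.4 for HP1alpha and 26.5 for HP1beta. Fgf5, a growth factor of the primed epiblast, had 16.0, 26.8 and 40.8 RPM, and so was an exception to the order in which HP1alpha was highest. Commd6 had 41.2, 87.3 and 81.7 RPM (ratio 0.487, 0.429 to 0.55), and Spata13, a guanine nucleotide exchange factor, 19.6, 44.9 and 34.8. At the Commd6 event 282 of the 304 HP1gamma reads fitted neither isoform, against 556 of 851 for HP1alpha and 479 of 728 for HP1beta. The 271 and 233 inclusion reads of the latter 2 count in both the level ratio and the exon inclusion. The lower level and the lower inclusion of Commd6 are therefore not separate results. The versican gene Vcan, named above for its exon, had 61.1, 123 and 102 RPM (ratio 0.541).

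The genes called higher were 3. Slc50a1, a sugar transporter, had 56.2 RPM for HP1gamma, 37.0 for HP1alpha and 34.4 for HP1beta (ratio 1.57, 1.39 to 1.78). Oas1f, of the interferon-induced oligoadenylate synthetase family, had 18.4, 12.5 and 11.5 RPM (ratio 1.53). Cbx1 entered through its own knock-down in the reference: its ratio was 1.57 to the sum, 1.07 to HP1alpha and 3.20 to HP1beta. Reads that fitted neither isoform made up 79.3% of the HP1gamma reads of Slc50a1 and 97.1% of those of Oas1f. Without such reads 60 genes were called higher, 1 of these 3 among them, and 258 lower, 80 of the 112 among them.

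By group, beside 3.07% lower over all genes, HP1 partners and H3K9 methylation genes had 5 of 30 called lower, Tet2, Adnp, Kdm4c, Dnmt3a and the target Cbx3, and 1 higher, Cbx1. Adnp, a zinc finger protein that recruits HP1, had 44.3 RPM for HP1gamma, 83.3 for HP1alpha and 63.8 for HP1beta (ratio 0.599), and the H3K9 demethylase gene Kdm4c 36.8, 68.9 and 47.8 (ratio 0.626). Reads fitting neither isoform made up 92.7% of the HP1gamma reads at Adnp and 42.6% at Kdm4c. Chromatin regulators had 8 of 55 called lower, among them Chd9, Pbrm1 (ratio 0.542) and the remodeller Smarcad1 (0.571). The share of such reads was 37.3% at Pbrm1 and 61.7% at Smarcad1. The median log2 ratio was -0.247 in the former list and -0.193 in the latter, against -0.00457 over all genes. These lists also held longer genes, with a median span of 46.2 and 71.2 kb against 27.9 kb over all genes, and the part of span in their lower ratios was not tested. The same lists stood 0.164 and 0.146 higher for HP1alpha than for HP1beta, against 0.0156 over all genes.

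In each other group 0 to 2 genes were called, beside the same 3.07%. One of 26 SR protein genes was lower, Srrm2 (ratio 0.503, with 37.4, 84.0 and 63.7 RPM), and 2 of 38 hnRNP and other regulators, Fmr1 (0.612) and Ptbp3 (0.628). One gene each was lower among interferon and siRNA response genes (Dicer1, the nuclease that makes small RNAs, 0.627, of 7), cytoskeleton genes (Clasp2, 0.625, of 54) and apoptosis and cell cycle genes (Mdm4, an inhibitor of p53, 0.514, of 17). Reads fitting neither isoform made up 99.9% of the HP1gamma reads at Mdm4, 96.4% at Ptbp3, 91.9% at Clasp2 and 88.3% at Fmr1. At Srrm2 and Dicer1 they made up 49.3% and 33.9%. Of 18 genes on the mitochondrial list 1 was lower, Commd6. It is described above as one of a family of trafficking and NF-kappaB regulators, so its call says nothing on mitochondrial function. None of 11 pluripotency genes was called: Klf4 had 482, 465 and 385 RPM and Zfp42 had 188, 230 and 185. None of 3 differentiated markers was called either.

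**Figure D4:**
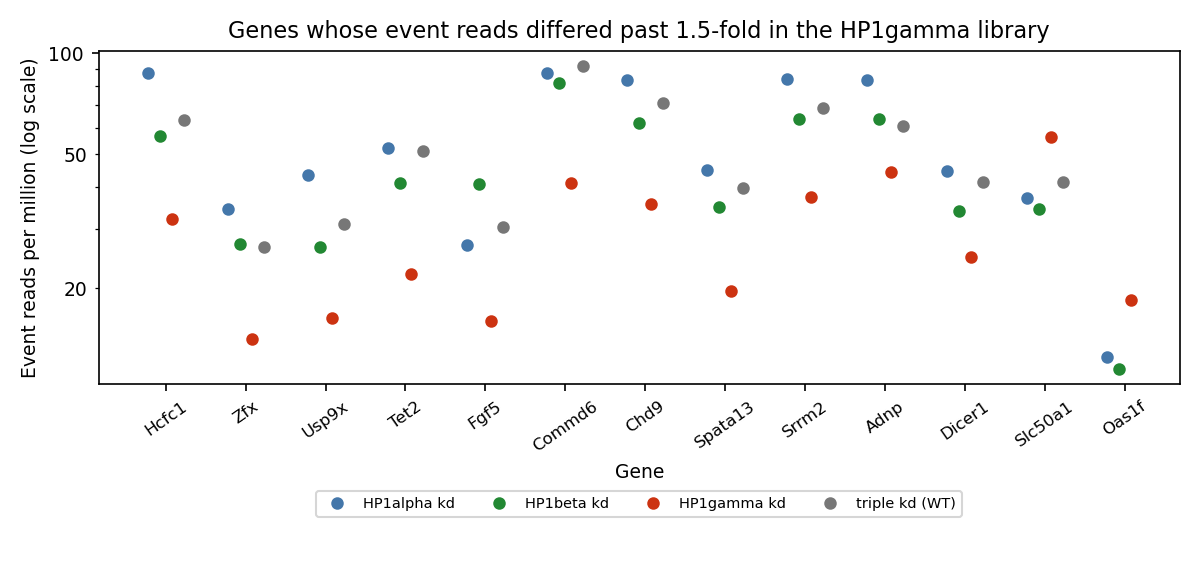
Event reads (RPM, log scale) of 13 genes called past 1.5-fold in the HP1gamma library, in the 3 single knock-downs and the triple knock-down (kd) of WT cells; each point is 1 pooled library. By the choice of genes, the HP1gamma point is the lowest single knock-down in the first 11 genes and the highest in Slc50a1 and Oas1f. The triple knock-down lies above the HP1gamma point in each of those 11, which that choice alone favours. Oas1f was not listed in the triple knock-down.

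The triple knock-down of WT cells, with HP1gamma siRNA at 60 nM, listed 109 of the 112 genes. The deposited minimum of 100 reads is 21.4 RPM in that library, so a fold of 1.5 below the HP1alpha and HP1beta libraries could be seen in 85 of them. Of these 85 genes, all picked because HP1gamma was the lowest of the single knock-downs, 0 stood that far below the HP1alpha and HP1beta libraries. Their ratio to the 2 libraries had a median of 0.971 (0.71 to 1.21), with 48 below 1 and Cbx3 the lowest; Hcfc1 had 63.1 RPM, Tet2 51.3 and Commd6 91.7. Over all genes listed in it, 20 of 3307 were called higher by that fold and 1 lower. In the TKO triple, 78 of 100 of the genes stood 1.5-fold or more below, but so did 565 of all 3476 genes there, a comparison that also differs in cell line.

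Gene span moved with the levels. The 112 genes called lower had a median span of 71.6 kb, against 27.9 kb over all 3651 genes. Across genes, Spearman's rho between span and the HP1gamma ratio was -0.337, and between span and the ratio of HP1alpha to HP1beta 0.222. The median log2 ratio for HP1gamma was 0.151 in the eighth with the shortest genes, -0.101 in the seventh and -0.0723 in the longest, and the 8 eighths held 1, 2, 5, 10, 8, 22, 37 and 27 of the lower calls. For the triple knock-down against the same 2 libraries rho was -0.00941. The part of gene span in the lower levels was not tested.

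**Figure D5:**
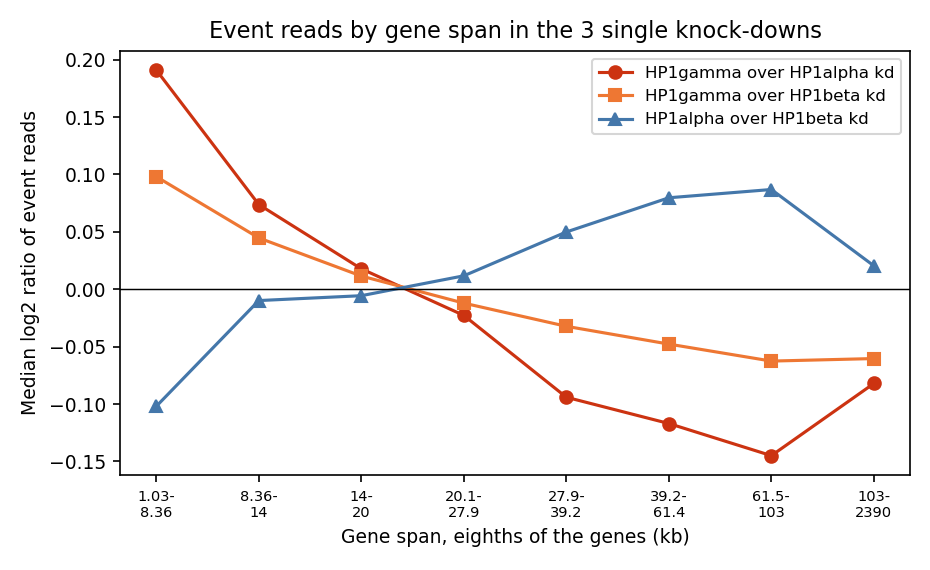
Median log2 ratio of event reads between each pair of single knock-down (kd) libraries in eighths of the genes by span (kb, ranges on the x axis, about 457 genes each). HP1gamma over HP1alpha goes from 0.191 in the shortest genes to -0.145 in the seventh eighth, HP1gamma over HP1beta from 0.0981 to -0.0626, and HP1alpha over HP1beta from -0.102 to 0.0869.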

How the data were processed

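RNA was sequenced by the submitters from 2 replicates in each of 7 groups. Alignment tools named in the submitters' processing notes are TopHat2 and Bowtie2, with build mm10 and no versions. Per the file headers, the authors deposited MISO skipped-exon summaries, 1 per group with replicates pooled, per the labels. The deposited level of an exon is a fraction, the posterior mean of inclusion, with an interval of unstated level. Each event also carries deposited read counts that fit inclusion, skipping, both or neither, at least 100 in sum.

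Events were joined by coordinates and given gene symbols and spans from the RefSeq table of GRCm38.p6, the assembly of mm10, on either strand. Inclusion-alone and skipping-alone reads were compared with two-sided Fisher's exact tests (scipy 1.17.1) and Benjamini-Hochberg adjustment, and share differences were given Newcombe 95% intervals. RPM values used reads of all classes, with exact binomial intervals for ratios. The members, tests and 10 gene lists were chosen with earlier results of these data known.

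Named exons were those with an adjusted p of at most 0.05 or separate intervals, the 3 largest differences per list with HP1gamma outside the range of the others, HP1 genes, and exons from earlier results; named genes were the 8 lowest and highest called ratios and up to 3 called per list. Some of these are not described. Dnmt3a, Macf1 and the exons beside the read minimum were named after their values were seen. Exon sequences were not used here.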

Additional observations from a re-analysis of the deposited data

How the results depend on the processing

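No paired analysis was possible because each group was deposited as 1 pooled summary without replicate columns, and for the same reason no replicate could be left out. The 0 splicing calls became 1 with a minimum of 10 reads (Commd6), 1 against the HP1beta library alone (Immt), 1 with the share of inclusion reads in place of the deposited level (Actg1) and 4 with no minimum difference, and stayed 0 in the 6 other settings. The 6 exons with separate intervals became 3 at a difference of 0.2 and 3 at 50 reads. The 3 higher and 112 lower genes became 0 and 10 at a fold of 2, 5 and 46 against HP1beta alone, and 15 and 240 against HP1alpha alone. Without reads that fit neither isoform, an alternative chosen after seeing the data, they became 60, with 1 of the 3 among them, and 258, with 80 of the 112 among them, and the Cbx3 ratio was 0.378 in place of 0.634. The cause of these moves was not tested. Depth limits which exons can be compared: the minimum of 20 reads left out Commd6, Macf1, Mettl23 and Aamdc.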
